A study of Mus musculus with 137 samples.

Results

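Krüppel-like factors (KLFs) are zinc finger transcription factors that bind GC-rich and CACCC-type DNA, and they share this DNA-binding domain with the SP proteins. The members described here were the 10 KLF genes Klf2, Klf3, Klf4, Klf5, Klf6, Klf9, Klf10, Klf13, Klf16 and Klf17, chosen by symbol, out of 36176 genes to which the transcript entries were summed. Klf2, Klf4 and Klf5 are known as activators that sustain naive pluripotency in embryonic stem cells, and Klf5 is also needed for the trophectoderm, the outer layer of the blastocyst. Klf17 is a germ cell and early embryo factor. Klf3, Klf9, Klf10, Klf13 and Klf16 are known mainly as repressors, Klf3 through CtBP and the others through the Sin3 and histone deacetylase complex. Klf6 is a broadly expressed early-response activator.

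Each library was made from 1 mouse embryo of the B6129F1 strain at the 2-cell stage, when the major wave of embryonic transcription begins, with oligo-dT primed SmartSeq2. Its zygotes had been collected 5 hours after fertilization and cultured without oil in KSOM, and from hour 6 the medium held either 0.1% DMSO (29 embryos), 10 µM SR1848 (41 embryos) or 10 µM SR1848 in embryos that also carried NR5A2 mRNA, given at 500 ng/µl (67 embryos). SR1848 is described as an inhibitor of NR5A2, an orphan nuclear receptor. The 2 experiments contributed 19 and 10, 17 and 24, and 27 and 40 embryos to these groups. No embryo had the mRNA without the inhibitor, and none had a control mRNA with it, so what NR5A2 does and what adding an mRNA does cannot be told apart here. The labels say that each library is another embryo, and do not say which embryos shared parents or a culture drop; p-values therefore measure the spread between these embryos.

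Libraries 1 to 8 of experiment 2 in the DMSO and NR5A2 mRNA groups went against their labels in Nr5a2, in the GFP entries or in both. The 8 labelled DMSO had 88.3 to 5395 CPM (each count as a share of its library's total, scaled to 1e+06) of Nr5a2 and 47.4 to 7075 CPM of the GFP entries. Library DMSO 4 was the lowest in both. Its Nr5a2 lay within the 83.7 to 189 CPM of the 18 sound DMSO libraries (defined below), which had at most 0.765 CPM of GFP. The 8 labelled NR5A2 mRNA had 81.6 to 155 CPM of Nr5a2 and at most 0.452 CPM of the GFP entries. These 16 were kept out of the reported comparisons, which used 121 of 137 libraries, and their KLF values stand apart below. Nr5a2 itself had medians of 104 CPM with DMSO, 13.2 with SR1848 and 2729 with NR5A2 mRNA in the libraries used, where supplied and embryonic mRNA were not separated. A further 16 of the 59 libraries labelled NR5A2 mRNA and used also had the targeted gene against their label: they held under 100 CPM of the GFP entries and 0 to 97.0 CPM of Nr5a2, while the other 43 held 1691 CPM of Nr5a2 or more. They stayed in the reported comparisons. Many results that rest on that group, but not all, are also given without them. The difference between experiments and the correlations within groups are given only with them. Totals ran from 100883 to 9317720 counts (median 4712480), and 7 low libraries (3 DMSO, 1 SR1848, 3 NR5A2 mRNA) stayed in the tests but are left out of the ranges below, which use the other 114 (called sound). Of 29 measured 2-cell markers 25 had a median above 1 CPM over the 21 DMSO libraries used, and of 40 maternal (oocyte) transcripts 37. In the sound libraries the summed level of the 2-cell list was 0.234% to 0.447% of counts with DMSO, 0.0179% to 0.439% with SR1848 and 0.000104% to 0.909% with NR5A2 mRNA, with medians of 0.318%, 0.0505% and 0.159%, while the maternal list had medians of 1.21%, 3.87% and 2.72%. The value of 0.000104% was that of library NR5A2 mRNA 2 of experiment 1. It had 8409 genes detected, against a median of 16520 in the sound libraries of its group, and 0 CPM of GFP. It counts as sound here, so the ranges of its group include it. Of 13 cumulus and granulosa markers 8 had a median of 0 over the 21 DMSO libraries, Foxl2 and Fshr among them, and Amhr2 had 80.4 CPM; the list summed to at most 0.0148%, 0.0219% and 0.00679% of counts in the sound libraries. Of 6 blood markers the 4 others than Hba-a1 and Hba-a2 had medians of 0 in every group, and the median of the list in the sound libraries was 0.00152% with DMSO, 0.00273% with SR1848 and 0.0186% with NR5A2 mRNA. The part of these markers in the KLF results was not tested.

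To show the DNA at which these genes start, the bases just upstream of the start site are printed for Klf9, Klf2 and Klf13, which had lower counts with SR1848, for Klf17, by far the most abundant member, and for Klf4, which had higher counts with NR5A2 mRNA. Promoters of 7 of the 10 members were matched by symbol in a RefSeq table on GRCm38.p6. Each sequence is written 5′ to 3′ on the gene's strand, ends before the annotated gene begins and is in lower case, with capitals marking the GC box (GGGCGG or CCGCCC) and the CACCC box (CACCC or GGGTG); where matches overlap, the capitals run together. They lie at chr19:23140976-23141225 (Klf9, plus strand), chr8:72318812-72319032 (Klf2, plus strand), chr7:63938916-63939165 (Klf13, minus strand), chr4:117765667-117765916 (Klf17, minus strand) and chr4:55532476-55532725 (Klf4, minus strand).
Klf9: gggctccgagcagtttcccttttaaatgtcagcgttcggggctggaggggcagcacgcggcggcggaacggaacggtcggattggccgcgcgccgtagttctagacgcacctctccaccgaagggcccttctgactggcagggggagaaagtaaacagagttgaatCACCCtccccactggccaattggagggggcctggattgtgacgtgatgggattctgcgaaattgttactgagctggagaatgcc
Klf2: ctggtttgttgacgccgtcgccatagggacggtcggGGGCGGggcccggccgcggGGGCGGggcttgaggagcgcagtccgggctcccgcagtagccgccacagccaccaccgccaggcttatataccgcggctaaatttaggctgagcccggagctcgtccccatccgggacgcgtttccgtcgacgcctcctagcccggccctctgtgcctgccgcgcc
Klf13: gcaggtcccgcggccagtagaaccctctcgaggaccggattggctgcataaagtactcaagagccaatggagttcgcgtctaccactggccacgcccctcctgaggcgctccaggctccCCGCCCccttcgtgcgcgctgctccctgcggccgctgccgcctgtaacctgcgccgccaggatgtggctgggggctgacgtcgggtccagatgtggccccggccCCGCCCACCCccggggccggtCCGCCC
Klf17: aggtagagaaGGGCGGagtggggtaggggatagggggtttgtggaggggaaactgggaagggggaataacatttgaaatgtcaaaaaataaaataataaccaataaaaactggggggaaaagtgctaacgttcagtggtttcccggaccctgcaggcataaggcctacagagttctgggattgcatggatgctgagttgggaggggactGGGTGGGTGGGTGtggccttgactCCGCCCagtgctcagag
Klf4: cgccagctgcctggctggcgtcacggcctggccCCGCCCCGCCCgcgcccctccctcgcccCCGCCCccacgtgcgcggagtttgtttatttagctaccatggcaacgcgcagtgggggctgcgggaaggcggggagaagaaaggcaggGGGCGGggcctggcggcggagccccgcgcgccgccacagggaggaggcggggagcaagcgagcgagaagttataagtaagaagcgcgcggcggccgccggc

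The stretches of Klf9 and Klf2 differed in their boxes: that of Klf9 held 0 GC boxes and 1 CACCC box, and that of Klf2 held 2 GC boxes and 0 CACCC boxes. The Klf13 stretch held 3 GC boxes and 1 CACCC box, that of Klf4 held 4 and 0, and that of Klf17 held 2 and 3. In the whole 300-base window (250 before and 50 after the start), a GC box was present in 6 of the 7 members and a CACCC box in 5 of 7, against 35.7% and 57.5% of 32851 promoters. Klf2 was among the 5, with a CACCC box (GGGTG at -19 from the RefSeq start) that lies past the end of its printed stretch. The letters AAGGTCA or TGACCTT, a form of the core to which NR5A2 binds, were present in 0 of 7 members and in 4.72% of all promoters. Other forms of that core, AAGGCCA among them, were not counted. The printed Klf17 stretch holds AAGGCCA on its other strand (tggcctt). Klf17 also differed from the other 6 in base composition, with 50.7% G and C and 6 CG pairs per window, near the medians of all promoters (52.7% and 7). The other 6 had 63.0% to 76.7% and 23 to 40 CG pairs. These matches describe the letters in the window and are not binding sites.

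In DMSO embryos Klf17 stood far above the rest of the family. Per length, in TPM, which divides counts by transcript length before the same scaling, the medians of 18 DMSO embryos were 1273 for Klf17, 28.0 for Klf5, 23.5 for Klf9, 20.5 for Klf16, 12.6 for Klf13, 10.5 for Klf4, 5.23 for Klf2, 4.22 for Klf10, 4.14 for Klf3 and 0.636 for Klf6. Klf17 ran from 778 to 1576 TPM, and the next gene, Klf5, reached 59.2 TPM at most. Every other neighbouring pair in this order overlapped in range. With SR1848 the median TPM of 40 embryos was 1189 for Klf17 and 35.2 for Klf10, followed by Klf13 (15.7), Klf16 (10.5) and Klf4 (7.43). The plot of single embryos shows these levels on the CPM scale.

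**Figure D1:**
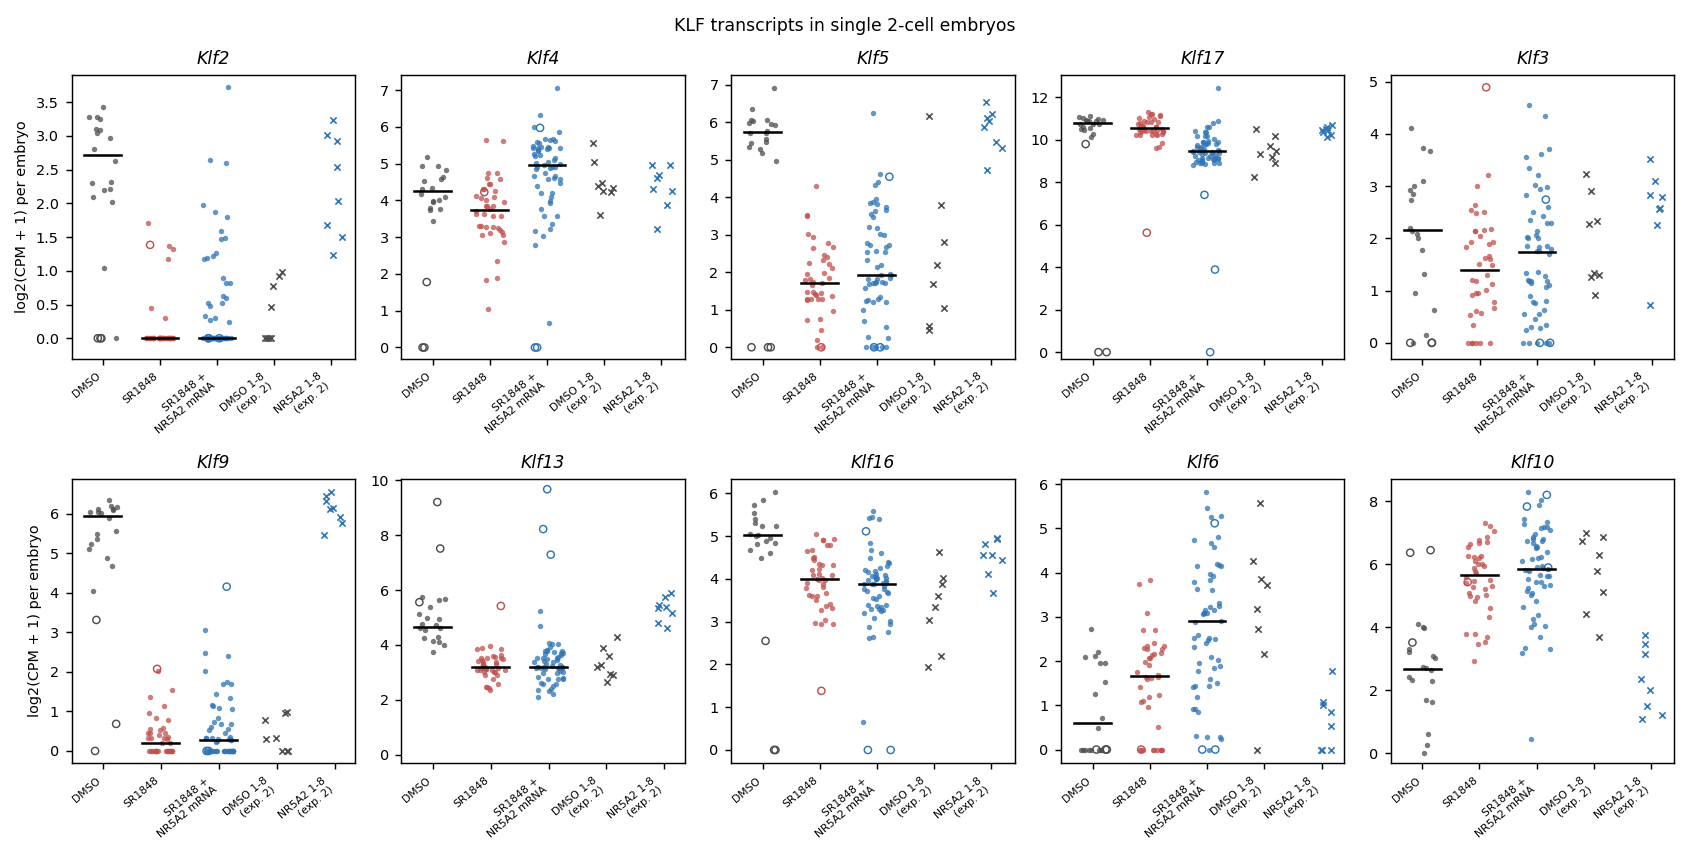
Each point is 1 embryo, as log2(CPM + 1), for the 10 KLF genes; filled points are the 18 DMSO, 40 SR1848 and 56 NR5A2 mRNA embryos with sound libraries, open circles the 7 low libraries, crosses the 16 libraries that went against their labels, and bars the medians of the filled points. Klf5 and Klf9 of all SR1848 embryos sit below all filled DMSO points, and most SR1848 points of Klf10 sit above them.

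SR1848 against DMSO asks which KLF transcripts differ when the inhibitor is present. In 41 SR1848 against 21 DMSO embryos, 5 of the 10 members fell (Klf9, Klf2, Klf5, Klf13, Klf16), 1 rose (Klf10) and 4 did not pass the test (Klf3, Klf4, Klf6, Klf17). The test was edgeR's quasi-likelihood F, and p-values were adjusted by Benjamini-Hochberg over 14920 genes. All 10 members passed the filter on low counts. Of all genes tested 73.9% were called, 40.2% higher and 33.7% lower, so 6 of 10 members called is no more than the background. The median change of the members was -0.50 log2, against 0.28 for all genes. All changes below are log2 differences of CPM after TMM scaling, the first group minus the second. Fewer transcripts per cell and a larger pool of other RNA cannot be told apart in such values.

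Klf9, a thyroid hormone- and glucocorticoid-responsive repressor, had the largest fall among the members as fitted here, with or without the low libraries. It had 15.7, 60.9 and 79.8 CPM (lowest, median, highest) in the 18 DMSO embryos and 0, 0.142 and 3.03 CPM in the 40 SR1848 embryos, 19 of which had no count at all. The groups did not overlap. The fitted change was -6.86 (SE 0.60, adjusted p = 2.34e-19 by edgeR), and -8.58 when scaled to the maternal list, where Klf13 (-11.05) was lower still. Klf9 lies at chr19:23141226-23168134. Klf9-201, the coding transcript, held 99.8% of its counts with DMSO, and 75.2% of the few left with SR1848.

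Klf5 was next in separation, and the third gene in the size of its fall. Its CPM were 30.3, 52.7 and 121 with DMSO and 0, 2.30 and 18.8 with SR1848, and again the highest SR1848 embryo was below the lowest DMSO embryo. The change was -3.61 (SE 0.49, adjusted p = 1.26e-10 by edgeR). Separation without overlap towards lower values, in the sound libraries, was found for 2 of the 10 members (Klf5 and Klf9) and for 13.2% of all genes; towards higher values it was found for 0 members and 4.89% of genes. Klf5 lies at chr14:99298691-99315036.

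Klf2, an activator that responds to shear stress in endothelium and is part of the naive pluripotency set, was a low transcript, and most SR1848 embryos had no count of it. DMSO embryos had 0, 5.56 and 9.75 CPM, with counts in 17 of 18, and SR1848 embryos had a median of 0 and a highest value of 2.28 CPM, with counts in 6 of 40. A DMSO embryo without a Klf2 count makes the ranges overlap. The change was -4.16 (SE 0.73, adjusted p = 2.29e-07 by edgeR). Klf2 lies at chr8:72319033-72321656.

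Klf13, at chr7:63886351-63938915, a repressor with roles in T cells and heart, fell less. Its CPM were 12.3, 24.5 and 53.1 with DMSO and 4.16, 8.07 and 14.6 with SR1848, and 36 of 40 SR1848 embryos were below all DMSO embryos. The change was -1.72 (SE 0.31, adjusted p = 4.83e-07 by edgeR). Low libraries weigh on this gene: library DMSO 6 of experiment 1 alone had 591 CPM from 59.6 counts, and leaving out the low libraries gave -1.45. The size of the Klf13 fall also followed the scaling, with -2.77 for library totals and -11.05 for the maternal list (-3.07 for that list without the low libraries), and in experiment 2 alone it was -1.26 and did not pass (adjusted p = 0.159 by edgeR).

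The transcripts of Klf13 did not move together. Klf13-201, the full-length transcript of 6396 bases, had medians of 22.6 CPM with DMSO and 3.56 with SR1848, and its range went from 10.6 to 50.5 down to 0.961 to 12.2. Klf13-204, of 487 bases and also annotated as coding, had 1.44 and 3.44 CPM. Of the summed Klf13 counts, Klf13-201 held 94.0% with DMSO, 48.0% with SR1848 and 63.3% with NR5A2 mRNA, and Klf13-204 held 5.46%, 43.4% and 30.8%. Since Klf13-204 is short, the level per length did not follow the counts: the median TPM of the gene was 12.6 with DMSO and 15.7 with SR1848. A pair of genes lie on the opposite strand within Klf13 (E030018B13Rik and Gm27252), and no source used here states strand-specific counting, so reads from either strand cannot be told apart.

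**Figure D2:**
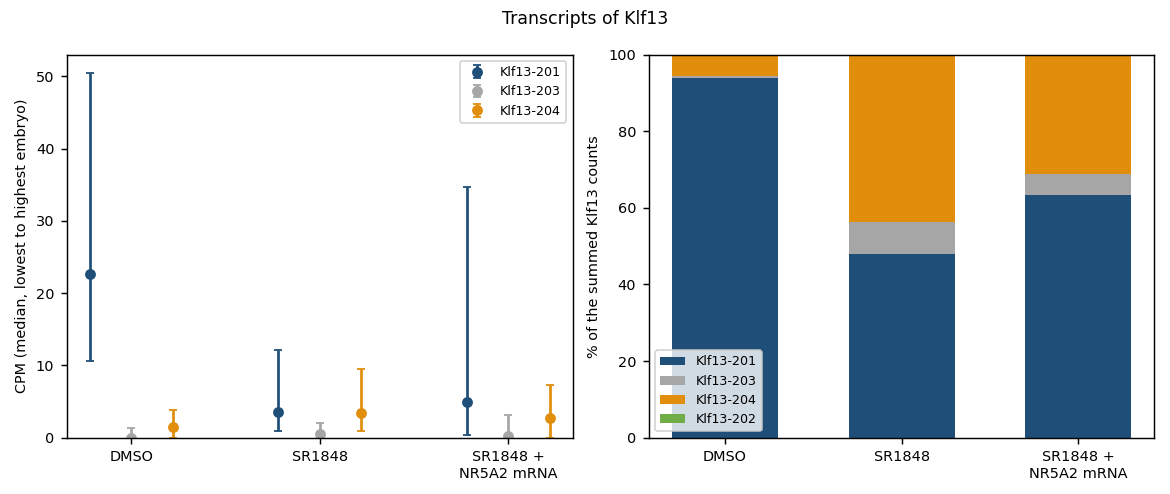
Left, CPM of 3 Klf13 transcripts in the 18 DMSO, 40 SR1848 and 56 NR5A2 mRNA embryos with sound libraries, with points at the median and bars from the lowest to the highest embryo; right, the share of each transcript in the summed Klf13 counts of a group, in percent. Klf13-201 goes from 94.0% to 48.0% between DMSO and SR1848, and Klf13-204 from 5.46% to 43.4%.

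Klf16, at chr10:80567124-80577321 and a GC-box repressor, had 21.5, 31.8 and 64.8 CPM with DMSO and 6.71, 15.1 and 32.4 with SR1848, with 31 of 40 SR1848 embryos below the DMSO range. Its change was -0.60 (SE 0.27, adjusted p = 0.0351 by edgeR); without the low libraries it was -0.77. The Klf16 call was lost in experiment 1 alone (-0.68, adjusted p = 0.100), in experiment 2 alone (-0.64, adjusted p = 0.353), with all libraries as labelled (-0.39, adjusted p = 0.133) and with the replicate number as a block (-0.60, adjusted p = 0.0912, all by edgeR). Klf3, at chr5:64803388-64832901, had 0, 3.49 and 16.2 CPM with DMSO and 0, 1.64 and 8.30 with SR1848, and its change of -0.40 did not pass (adjusted p = 0.504 by edgeR). The full-length Klf3-201 held 39.8% of the Klf3 counts with DMSO and 10.6% with SR1848, while Klf3-203, a retained intron, went from 4.72% to 18.7%. The gene also shares its span with a same-strand and an opposite-strand RNA, so its low values are uncertain.

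Klf10 was the member that rose. This repressor, known as the TGF-beta-inducible early gene, lies at chr15:38291463-38300706. It had 0, 5.39 and 16.3 CPM with DMSO and 6.64, 49.9 and 158 with SR1848. Of 40 SR1848 embryos 34 were above every DMSO embryo, and the other 6 were within the DMSO range. The change was 2.97 (SE 0.40, adjusted p = 1.43e-10 by edgeR). Klf10-201 held 92.7% of the counts with SR1848 and 76.9% with DMSO. Scaled to the maternal list the change was 0.40 and did not pass (adjusted p = 0.686 by edgeR), or 1.72 when the low libraries were left out as well.

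Klf17, Klf4 and Klf6 gave no call. Klf17, at chr4:117757836-117765648, had 1104, 1785 and 2236 CPM with DMSO and 779, 1493 and 2506 with SR1848, with 33 of 40 SR1848 embryos inside the DMSO range (change 0.31, adjusted p = 0.381 by edgeR). Klf4, at chr4:55527143-55532466 and one of the reprogramming factors, had 9.87, 18.0 and 35.5 CPM against 1.06, 12.3 and 48.8 (change 0.07, adjusted p = 0.851 by edgeR). Klf6, at chr13:5861482-5870394, had counts in 10 of 18 DMSO embryos, with 0, 0.516 and 5.58 CPM, and in 31 of 40 SR1848 embryos, with 0, 2.17 and 13.3 CPM (change 1.21, adjusted p = 0.0545 by edgeR). The signs of these 3 depend on the scaling: scaled to the maternal list Klf17 was -1.45, Klf4 -1.54 and Klf6 -0.51, of which those of Klf17 and Klf4 passed. That scaling moved the median of all genes from 0.28 to -1.39.

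**Figure D3:**
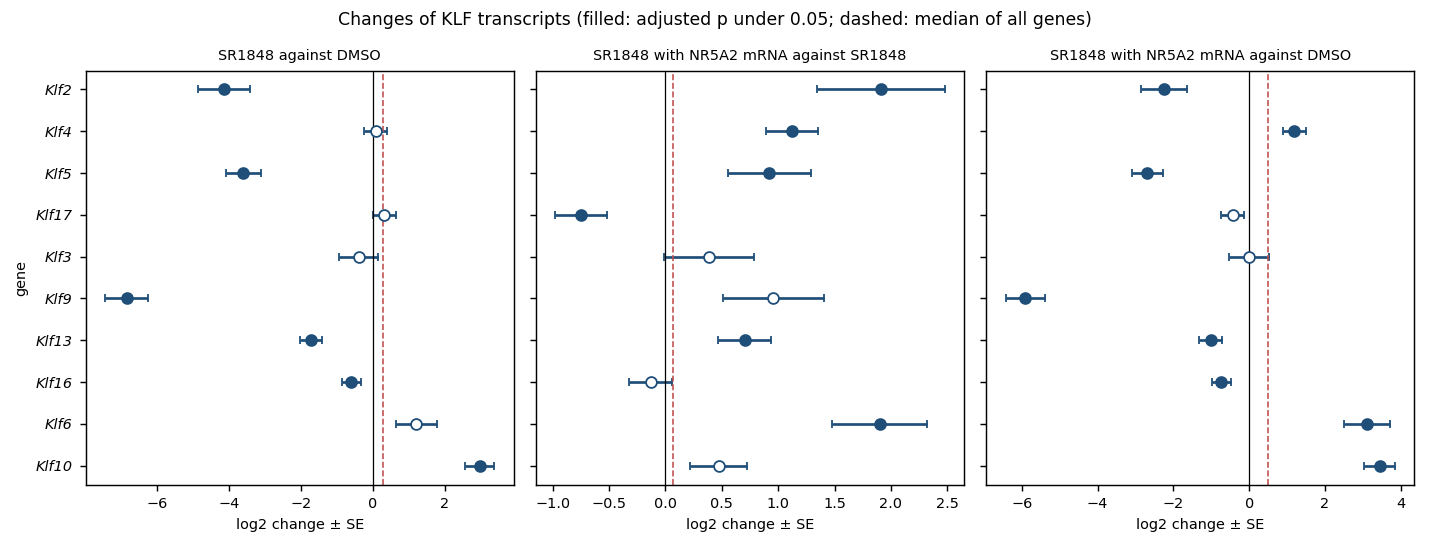
Fitted log2 changes of the 10 KLF genes with their standard errors in the 3 comparisons; filled points passed an adjusted p of 0.05, open ones did not, and the dashed line is the median of all 14920 genes. Klf9 at -6.86 and Klf10 at 2.97 mark the ends of the left panel, and Klf17 at -0.75 is the member below 0 that passed in the middle panel.

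SR1848 with NR5A2 mRNA against SR1848 alone asks which transcripts differ when the factor is supplied. In 59 against 41 embryos 5 of 10 members rose (Klf2, Klf4, Klf5, Klf6, Klf13), 1 fell (Klf17) and 4 did not pass (Klf3, Klf9, Klf10, Klf16). Without the 16 libraries low in GFP and Nr5a2, called GFP-low from here (43 against 41 embryos), 3 rose (Klf2, Klf4, Klf6) and Klf17 fell, while Klf5 and Klf13 no longer passed. In that fit 2491 of 14503 genes were higher and 1717 lower. The background in the fit on all 59 was 33.5% of genes called, 22.8% higher and 10.7% lower. The members' median change was 0.81 log2, against 0.07 for all genes. The ranges overlapped for every member, and 0.0% of genes were without overlap in either direction. This comparison and the first share the SR1848 embryos, so their changes are not independent.

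Among the activators, Klf4 had 0.574, 30.4 and 133 CPM in the 56 NR5A2 mRNA embryos, against a median of 12.3 with SR1848, with a change of 1.12 (SE 0.23, adjusted p = 3.64e-05 by edgeR). Without the GFP-low libraries the Klf4 change was 1.13 (adjusted p = 3.28e-05 by edgeR). Its level was above the DMSO range in 23 of 56. Klf6 had 0, 6.46 and 55.9 CPM, above every SR1848 embryo in 14 of 56 (change 1.90, SE 0.42, adjusted p = 1.34e-04 by edgeR; 1.36 and 0.00949 without the GFP-low libraries). Klf2 had counts in 25 of 56 embryos, with a median of 0 and a highest value of 12.2 CPM (change 1.91, SE 0.57, adjusted p = 0.00502 by edgeR). The Klf2 change was 1.69 without the GFP-low libraries (adjusted p = 0.0214), and in experiment 2 alone it was 1.29 and did not pass (adjusted p = 0.202, both by edgeR). Klf5 had 0, 2.83 and 75.9 CPM, above the SR1848 range in 4 of 56 and within the DMSO range in 1 of 56 (change 0.92, SE 0.37, adjusted p = 0.0412 by edgeR). That Klf5 call rests on the libraries low in GFP and Nr5a2: without them the change was 0.19 (adjusted p = 0.737), and in experiment 2 alone it was 0.19 (adjusted p = 0.785, both by edgeR). The median of Klf5 was 2.45 CPM in the 42 sound libraries with at least 100 CPM of GFP and 12.2 CPM in the 14 with less, against 2.30 CPM with SR1848 alone.

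Klf17 fell, the single member to do so. Its CPM were 445, 706 and 5584 in NR5A2 mRNA embryos, against 779, 1493 and 2506 with SR1848, and 33 of 56 were below every SR1848 embryo while 1 was above them. The change was -0.75 (SE 0.23, adjusted p = 0.00683 by edgeR), and -1.10 without the GFP-low libraries (adjusted p = 8.22e-06 by edgeR). Scaled to the maternal list it was -0.18 and did not pass (adjusted p = 0.467 by edgeR). In the authors' deposited table, which compares these groups by transcript, Klf17-201 had a log2 fold change of -0.85 (adjusted p = 2.01e-04) and Klf4-201 one of 0.86 (adjusted p = 2.30e-06). It also marks transcripts of Klf2, Klf5 and Klf6 as up. Klf16-201 (adjusted p = 0.0496) and Klf13-204 (adjusted p = 0.0107, both by DESeq2) are marked as down, and Klf13-201 is not marked. By gene, as fitted here, Klf16 did not pass and Klf13 rose. That table gives 92.7% of its log2 fold changes as within 1e-04 of 0, including those of Klf2, Klf5 and Klf9, as a shrunken estimate gives, and the sizes of those members cannot be read from it.

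Klf13 had 3.26, 8.21 and 36.9 CPM with NR5A2 mRNA. Its change of 0.70 (SE 0.23, adjusted p = 0.0126 by edgeR) rests on low libraries, of which NR5A2 mRNA 40 of experiment 2 had 817 CPM, 45.3% of the group's summed CPM; without the 7 low libraries it was 0.14 (adjusted p = 0.395) and without those low in GFP 0.28 (adjusted p = 0.279, both by edgeR). Scaled to library totals the Klf13 change was 1.43, and to the maternal list 6.51, or 0.71 with that list and no low libraries. Klf9 had 0, 0.214 and 7.34 CPM, below every DMSO embryo in 56 of 56, and its change of 0.95 did not pass (adjusted p = 0.0914 by edgeR). Without the GFP-low libraries the Klf9 change was 1.09 and did not pass either (adjusted p = 0.0614 by edgeR). Klf10 had 0.385, 56.9 and 314 CPM (change 0.47, adjusted p = 0.151, and -0.07 without the GFP-low libraries), and Klf16 had a median of 13.8 CPM (change -0.13, adjusted p = 0.652, both by edgeR). Klf3 had 0, 2.32 and 22.4 CPM (change 0.39, adjusted p = 0.499 by edgeR).

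Embryos labelled NR5A2 mRNA differed in how much GFP they carried, which the labels do not mention. Of the 56 sound libraries 42 had at least 100 CPM of the GFP entries, with Nr5a2 from 1691 CPM, and 14 had less, with Nr5a2 from 5.37 to 97.0 CPM (median 17.4). Klf17 was below every SR1848 embryo in 31 of the 42 and in 2 of the 14. Klf6 was above every SR1848 embryo in 6 of the 42 and in 8 of the 14, and Klf10 in 0 of the 42 and 5 of the 14. Klf5 was above the SR1848 range in 1 of the 42 and 3 of the 14. Klf4 was above that range in 4 of the 42 and 3 of the 14, and Klf2 in 3 and 3. The medians of Klf4 were 29.0 CPM in the 42 and 36.75 CPM in the 14. It was above the DMSO range in 15 of the 42 and 8 of the 14. The summed 2-cell share had medians of 0.0284% in the 42 and 0.444% in the 14. These sets were drawn after the data were seen, and no test was made between them.

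Against DMSO, the NR5A2 mRNA embryos (59 against 21) had 3 members higher (Klf10, Klf6, Klf4) and 5 lower (Klf9, Klf5, Klf2, Klf13, Klf16), with 73.6% of all genes called, 43.5% higher and 30.1% lower. Klf9 had a change of -5.90 (SE 0.52, adjusted p = 4.88e-19), Klf5 -2.69 (SE 0.41, adjusted p = 5.31e-09) and Klf2 -2.25 (SE 0.61, adjusted p = 5.93e-04, all by edgeR). Klf10 was 3.44 (SE 0.40, adjusted p = 5.39e-13), Klf6 3.11 (SE 0.61, adjusted p = 3.04e-06) and Klf4 1.19 (SE 0.30, adjusted p = 2.67e-04, all by edgeR). Klf13 (-1.02) and Klf16 (-0.74) passed as well; scaled to the maternal list Klf13 was -4.54 and did not pass (adjusted p = 0.0850 by edgeR). Without the GFP-low libraries 3 members were higher and 6 lower, with Klf17 (-0.93, adjusted p = 0.00108 by edgeR) added. In that fit 6384 of 14503 genes were higher and 4735 lower, and Klf9 was -5.70 and Klf5 -3.53. With the GFP-low libraries in, Klf17 did not pass (-0.43, adjusted p = 0.180 by edgeR), although 45 of 56 sound libraries were below every DMSO embryo. Of the 3 low DMSO libraries 2 had no Klf17 count, and leaving out the low ones gave -0.63 (adjusted p = 5.81e-04 by edgeR). Klf3 had a change of -0.02. The members' median was -0.59, against 0.48 for all genes, and Klf9 was the 1 member without overlap, as were 6.02% of genes towards lower values. All 3 comparisons share groups pairwise.

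The effect of NR5A2 mRNA on KLF genes was also compared between the experiments, with the GFP-low libraries in. The interaction term called 0 of 10 members and 3.61% of all genes (539 of 14920) by edgeR, and 1 member had an unadjusted p under 0.05. That member was Klf5, whose change was 1.96 in experiment 1 and 0.19 in experiment 2 (difference -1.77, SE 0.69, adjusted p = 0.176 by edgeR). Klf17 had -0.82 and -0.77, Klf4 1.495 and 0.77, and Klf6 2.26 and 1.58. For SR1848 against DMSO experiment 2 had 2 DMSO embryos left; there Klf9 was -6.81, Klf5 -3.27, Klf2 -4.31 and Klf10 2.61, against -6.59, -4.38, -4.87 and 2.87 in experiment 1. The test in experiment 2 alone passed for Klf9, Klf5 and Klf2 and not for Klf10 (adjusted p = 0.0660) or Klf13 (-1.26, adjusted p = 0.159, both by edgeR).

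In the 16 libraries left out, several KLF genes had levels opposite to their labels, and others did not. In libraries 1 to 8 labelled DMSO, Klf9 ran from 0 to 0.982 CPM, Klf5 had a median of 2.89, Klf10 of 66.6, Klf6 of 10.15 and Klf17 of 679 CPM. In libraries 1 to 8 labelled NR5A2 mRNA, Klf9 ran from 43.2 to 93.2 CPM, Klf5 had a median of 61.3, Klf10 of 3.62, Klf6 of 0.631 and Klf17 of 1407 CPM. Klf9 was thus below the DMSO range in 8 of the 8 labelled DMSO, and above every SR1848 embryo in 8 of the 8 labelled NR5A2 mRNA. Klf2 and Klf3 were within the DMSO range in 8 of the 8 labelled DMSO, and Klf4 in 7. Klf4 had medians of 19.6 CPM in the 8 labelled DMSO and 21.2 CPM in the 8 labelled NR5A2 mRNA. With all 137 libraries as labelled, Klf9 in the second comparison was 3.56 (adjusted p = 4.10e-05 by edgeR) instead of 0.95, Klf10 in the first was 1.28 instead of 2.97, and Klf6 in the first was -0.66.

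The other genes of the family and its SP relatives were read in the same fits. Of 7 other KLF genes measured 5 passed the filter, and with SR1848 Klf7 rose (2.12, SE 0.30, adjusted p = 3.55e-10 by edgeR) and Klf8 fell (-1.97, SE 0.65, adjusted p = 0.00478 by edgeR). Klf11, a close relative of Klf10, had medians of 104 CPM with DMSO and 119 with SR1848 (change 0.51, adjusted p = 0.0904), Klf12 had a change of -0.88 (adjusted p = 0.140) and Klf14 one of 1.06 (adjusted p = 0.174, all by edgeR). Without the low libraries Klf11 (0.33, adjusted p = 0.0281) and Klf12 (-1.75, adjusted p = 0.00193) passed, and Klf12 also passed with NR5A2 mRNA against SR1848 (1.28, adjusted p = 0.00362, all by edgeR). With the low libraries in, Klf12 did not pass in the latter comparison (0.82, adjusted p = 0.117 by edgeR). Nor did it without the GFP-low libraries (0.23, adjusted p = 0.73 by edgeR). With NR5A2 mRNA Klf14 rose against SR1848 (4.29, SE 0.60, adjusted p = 4.27e-09 by edgeR), from a median of 0 to 1.33 CPM in the sound libraries, with counts in 39 of 56 embryos. Of 8 SP genes tested, Sp6 (-4.93), Sp3 (-1.55) and Sp1 (-1.53) fell with SR1848 and Sp5 rose (2.29); with NR5A2 mRNA against SR1848, Sp6 (2.80), Sp8 (3.29), Sp9 (1.33) and Sp5 (1.21) rose and Sp1 (-0.65) fell. Without the GFP-low libraries Sp6 (1.61, adjusted p = 0.0559) and Sp5 (1.13, adjusted p = 0.0549, both by edgeR) no longer passed. Sp2 (0.48) and Sp4 (-1.36) did not pass in the first comparison, nor did Sp8 (0.90) and Sp9 (0.94); Sp4 passed without the low libraries (-1.46, adjusted p = 0.0366 by edgeR).

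Cofactors of KLF proteins were called in both directions, as were all genes: 40.2% of all genes tested rose and 33.7% fell with SR1848, and 22.8% rose and 10.7% fell with NR5A2 mRNA against SR1848. The counts of these lists are descriptions beside that background. Of 13 corepressor genes 7 rose and 4 fell with SR1848, the falls including Hdac1 (-3.51, SE 0.30) and Sap30 (-2.47, SE 0.36), both of the Sin3 complex; with NR5A2 mRNA 2 rose, Hdac1 among them (0.65), and 3 fell, or 1 and 5 without the GFP-low libraries, where Hdac1 was 0.49 and did not pass. Of 5 coactivators 2 rose and 3 fell, among them the acetyltransferases Kat2b (-5.18, SE 0.54) and Ep300 (-1.73, SE 0.28). Of 9 ubiquitin ligases and deubiquitinases of KLF proteins 4 rose, among them Usp3 (2.63, SE 0.21), and 3 fell, among them Vhl (-3.88, SE 0.41). Scaled to the maternal list with the low libraries in, Usp3 was -4.08. Low library DMSO 6 of experiment 1 had 0.00496% of its counts on that list. The part of the low libraries in this Usp3 value was not tested. Of 19 genes of the signals known to act on KLF genes 16 were tested, and 9 rose and 4 fell; Thrb, a thyroid hormone receptor, rose (3.02, SE 0.39) and Smad7, which dampens TGF-beta signalling, fell (-5.41, SE 0.51). The medians of these 4 lists were 0.61, -1.34, -0.16 and 1.04, against 0.28 for all genes. Scaled to the maternal list the corepressors gave 0 rises and 8 falls, the coactivators 0 and 4, the ubiquitin genes 1 and 7, and the signals 1 and 7. With that scaling 1930 of all 14920 genes rose and 8704 fell.

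Genes that KLF proteins are known to bind in embryonic stem cells or trophectoderm moved in both directions with SR1848: of 15 tested of 16, 5 rose and 6 fell (median 0.20). Fbxo15 fell (-3.40, SE 0.26) from 841 to 62.0 CPM, and Pou5f1 rose (2.87, SE 0.31) from 25.7 to 134 CPM, as medians of the libraries used. These counts, too, stand beside the 40.2% and 33.7% of all genes. With NR5A2 mRNA against SR1848, 10 rose and 0 fell (median 1.62, against 0.07 for all genes, of which 22.8% rose and 10.7% fell). The falls were 3 without the low libraries, 2 with relative log expression scaling, and 1 each with library totals, with all libraries as labelled and without the GFP-low libraries. Fbxo15 (0.30) and Pou5f1 (-0.21) were not among the 10. Immediate early genes, which respond to handling and serum like Klf6 and Klf10, gave 8 rises and 2 falls of 11 with SR1848, among them Egr1 (2.45, SE 0.29) and Ier3 (2.62, SE 0.52). They gave 5 rises and 0 falls of 11 with NR5A2 mRNA against SR1848. Scaled to the maternal list, the first comparison had 2 rises and 9 falls of the KLF targets and 5 and 3 of the immediate early genes. Of all 14920 genes 1930 rose and 8704 fell there. The part of the immediate early genes in the changes of Klf6 and Klf10 was not tested.

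Within groups the correlations among the KLF genes were low to moderate. After the mean of each group in each experiment was taken away, Spearman's rho over 114 embryos was highest for Klf4 with Klf10 (0.43), followed by Klf5 with Klf10 (0.38), Klf5 with Klf6 (0.37) and Klf6 with Klf10 (0.37), and lowest for Klf13 with Klf17 (-0.11). Such values share each library's depth and scaling, and are descriptions. Members with few counts were kept in. Klf2 had no count in 34 of 40 sound SR1848 and 31 of 56 sound NR5A2 mRNA embryos, and Klf9 in 19 and 25. For such genes a low rho does not show that they vary apart. The NR5A2 mRNA embryos were taken as 1 group per experiment, so differences between its GFP-low and other embryos are part of these values. In the 14 GFP-low and the 42 other sound libraries, Klf10 had medians of 144.6 and 49.5 CPM. The 2-cell share had medians of 0.444% and 0.0284% there. The part of this split in the correlations was not tested. Klf10 also followed the summed 2-cell share (rho 0.61), as did Klf5 (0.54) and Klf4 (0.47), while Klf17 (0.31) and Klf13 (0.03) did so less. With the library total no member exceeded 0.19 in size.

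Genes whose pattern over those 114 embryos was most like a member were sought among 6650 genes, for the 5 members with enough counts. The GFP-low embryos were again part of their group, and their part in these values was not tested. For Klf10 they were Slc38a6 (rho 0.75), Id2 (0.73) and Trib3 (0.72), and for Klf17 Abcf2 (0.65), Ptbp1 (0.65) and Aurkb (0.57). For Klf4 they were Gpr50 (0.58), Ing1 (0.56) and Hspa2 (0.54), and for Klf16 Slc39a1 (0.50), Tbx3 (0.50) and Spns1 (0.49). For Klf13 the most alike were Exosc8 (0.35), Gmps (0.33) and Ufd1 (0.32).

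**Figure D4:**
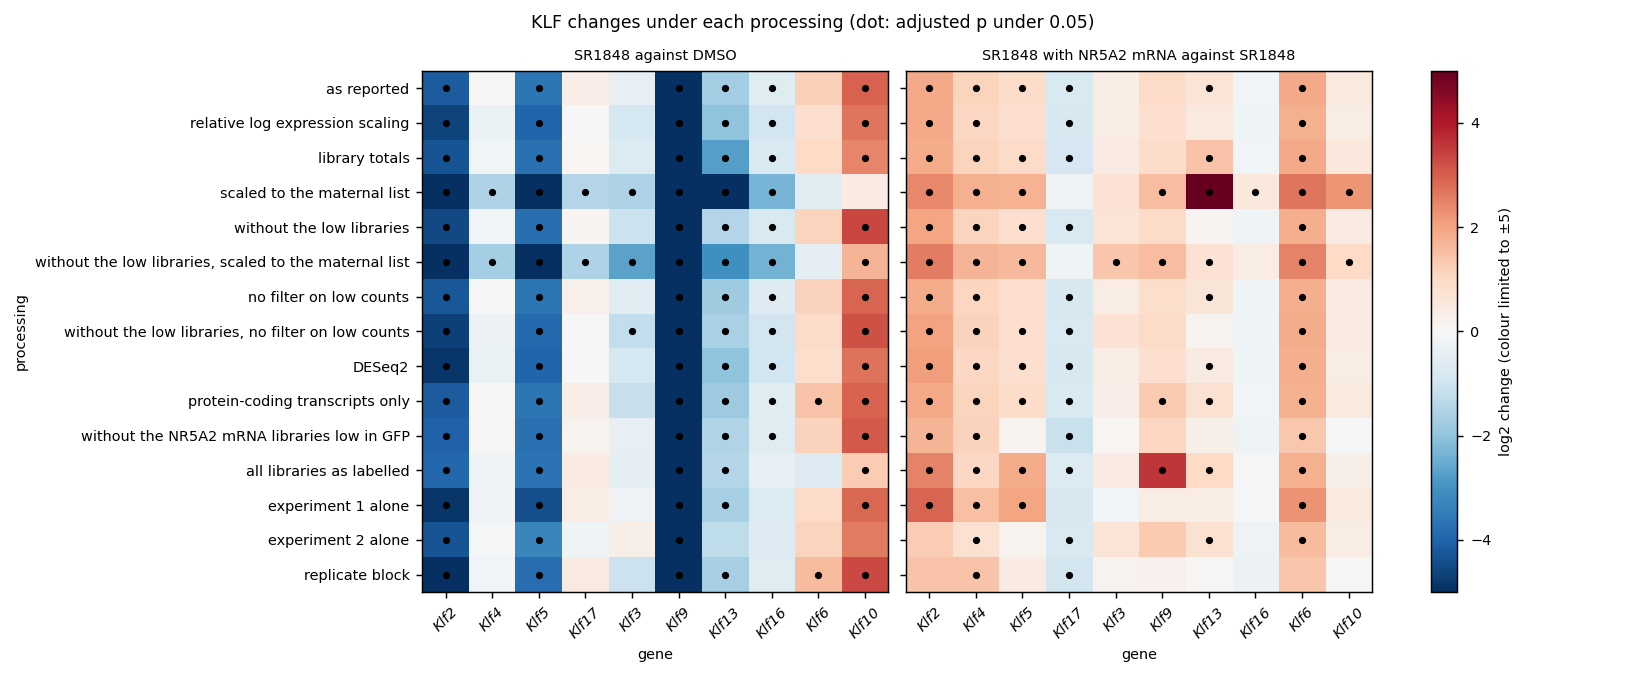
Log2 changes of the 10 KLF genes (columns) under each processing (rows) for SR1848 against DMSO and for SR1848 with NR5A2 mRNA against SR1848, with colour limited to 5 on either side and a dot where the adjusted p passed. Klf2, Klf5 and Klf9 are blue with a dot in every row on the left, and Klf4 is red with a dot in every row on the right.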

How the data were processed

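Each of 137 libraries, 1 embryo each, came as estimated counts per transcript that the authors deposited in 1 table; per the submitters' processing notes they used kallisto 0.46.1, Trim Galore 0.6.2, DESeq2 1.32.0 and R 3.5.1, with builds mm10 and hg19 in roles not given in the sources used here. A second table that the authors deposited holds log2 fold changes and p-values per transcript for SR1848 with NR5A2 mRNA against SR1848, with no step stated beyond DESeq2 in its name.

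Transcripts were summed to 36176 genes; 1691 entries with no gene (0.557% of counts) and 5 kept apart (0.158%) were left out. Of all values 26.3% were not whole, and counts were rounded for the tests. Groups came from the sample titles. edgeR 4.0.16 (R 4.3.3) was fitted with TMM scaling, its filter on low counts, and group plus experiment as terms, on 121 libraries; the 16 that went against their labels were left out. A change counted at an adjusted p under 0.05 over 14920 genes. Low libraries were those with a total under 1 in 5 of the median, or detected genes under 1 in 2. The fits were tested on simulated data. Alternatives were DESeq2 1.42.0, 3 other scalings, no filter, coding transcripts alone, single experiments, other library sets and a replicate term. Members and gene lists were chosen with earlier results of these data known, and the alternatives that join leaving out low libraries with another choice, or leave out the 16 NR5A2 mRNA libraries under 100 CPM of GFP, were added after seeing the data. The genes named from the lists were those with the smallest p in a list, by a rule set with the tests. CPM and TPM ranges cover the spread of embryos, not counting error.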

Additional observations from a re-analysis of the deposited data

Results flagged for a closer look

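The 8 libraries of experiment 2 numbered 1 to 8 and labelled DMSO were left out of the reported comparisons and used only in the alternative with all libraries as labelled. Of the members, Klf10 and Klf6 had medians there above the range of the DMSO embryos used. Klf10 had a median of 66.61 CPM there, against a highest value of 16.3 CPM in the 18 sound DMSO libraries, and 7 of 8 were above that range. Klf6 had a median of 10.15 CPM, against a highest value of 5.58 CPM, and 5 of 8 were above the range. Other members were below the DMSO range: Klf9 in 8 of 8, Klf5 and Klf16 in 7, and Klf13 and Klf17 in 6. Klf2 and Klf3 were within it in 8 of 8, and Klf4 in 7. The same libraries had a median of 2260 CPM of Nr5a2; whether labels were exchanged was not tested.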

How the results depend on the processing

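Across 14 alternatives, Klf2, Klf5 and Klf9 with SR1848 against DMSO kept their direction and their call (-5.79 to -3.93, -5.34 to -3.27 and -8.81 to -6.59), as did Klf4 with NR5A2 mRNA against SR1848 (0.77 to 1.77), and Klf5, Klf9 and Klf10 with NR5A2 mRNA against DMSO. Scaled to the maternal list, the KLF members gave 0 higher and 8 lower for SR1848 against DMSO, 8 higher and 0 lower for NR5A2 mRNA against SR1848, and 1 higher for the difference between experiments. Of all 14920 genes, 1930 were higher and 8704 lower there in the first, and 7306 higher and 478 lower in the second. For the difference between experiments, 1076 genes were higher. Leaving out the low libraries with that scaling gave 8 lower in the first comparison and 8 higher and 0 lower in the second. Of all 15134 genes tested there, 9667 were lower in the first, and 8669 higher and 451 lower in the second. Relative log expression scaling gave 3 higher in the second, beside 3230 of 14920 genes. Leaving out the NR5A2 mRNA libraries low in GFP gave 3 higher in the second, beside 2491 of 14503 genes. Coding transcripts alone gave 2 higher in the first, beside 6003 of 14920 genes. All libraries as labelled gave 3 lower for NR5A2 mRNA against DMSO and 1 higher for the difference between experiments. Of all 14534 genes tested there, 3748 were lower in the former and 611 higher in the latter. Experiment 1 alone gave 0 lower in the second comparison, beside 699 of 13634 genes. Experiment 2 alone, with 2 DMSO embryos, gave 0 higher and 3 lower in the first, 3 higher in the second, and 1 higher and 2 lower in the third. Of its 18699 genes, 2316 were higher and 3561 lower in the first, and 4164 higher in the second. In the third, 2217 were higher and 2969 lower. The cause of the moves in the members' counts was not tested, beyond the fewer embryos of single experiments.

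Signs changed as follows. For SR1848 against DMSO, Klf4 was -0.32 with relative log expression scaling, -0.13 with library totals, -1.54 with the maternal list, -0.010 without the filter, -0.33 with DESeq2, -0.27 with all libraries as labelled, -0.15 without the low libraries, -0.16 and -0.091 in experiments 1 and 2 alone, and -0.15 with the replicate block; without the low libraries it was -1.70 with the maternal list and -0.30 without the filter. Klf6 was -0.51 with the maternal list, -0.47 with that list and no low libraries, and -0.66 with all libraries as labelled. Klf17 was -0.023 with relative log expression scaling and with DESeq2, -0.017 without both low libraries and filter, -0.23 in experiment 2 alone, -1.45 with the maternal list and -1.52 with that list and no low libraries. Klf3 was 0.28 in experiment 2 alone, and 0.93 there for NR5A2 mRNA against DMSO. For NR5A2 mRNA against SR1848, Klf3 was -0.14 in experiment 1 alone, Klf10 was -0.068 without the libraries low in GFP, and Klf16 was 0.52 with the maternal list and 0.39 with that list and no low libraries.

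Replicate numbers did not pair the embryos: the median correlation of same-numbered embryos' deviations ran from -0.003 to 0.052 over 4 pairs of groups, and 0 to 2 embryos correlated best with their own number. A replicate block gave 2 higher for SR1848 against DMSO, with Klf6 at 1.58, and 1 higher for NR5A2 mRNA against SR1848. Of all 14920 genes, 5546 and 2053 were higher there. The median change of all genes for SR1848 against DMSO was 0.28 with TMM and -1.39 with the maternal list, and the share of calls that were higher was 54.4% and 18.2%. For NR5A2 mRNA against SR1848 that share was 68.2% and 93.9%. Klf2 had no count in 34 of 40 sound SR1848 and 31 of 56 NR5A2 mRNA embryos, and Klf9 in 19 and 25.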
